A study of Mus musculus with 8 samples.

Results

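Natural killer (NK) cells are lymphocytes that kill infected or transformed cells without prior sensitisation. They carry no rearranged antigen receptor. Instead they weigh signals from activating and inhibitory receptors encoded in the germline, and kill by releasing perforin and granzymes, the serine proteases of their granules. The NK cells described here are the 66 cells given that name in the deposited cell annotation, of 654 annotated cells in all. The others were 154 T cells, 109 macrophages and 325 tumour cells. The 66 cells held 51771 unique molecular identifiers (UMIs, one per captured RNA molecule) of 7750 genes.

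The cells came from tumours of the mouse mammary carcinoma line 4T1, grown under the skin of Balb/c mice and collected on day 10. Tumour pieces were dissociated for 1 h with a bacterial protease at 37C or at 4C, with or without actinomycin D, which blocks transcription and was used at 2 nM. A heated instrument served the 37C samples and an unheated one the 4C samples. Instrument and temperature cannot be told apart. Each of the 4 conditions was 1 suspension pooled from 6 tumour pieces of different mice, and its 2 libraries, A and B, are aliquots of it. The p-values below therefore measure the spread between libraries of pooled suspensions, not between animals, and the main count model takes its spread from the aliquots. NK cells numbered 12 and 8 in libraries A and B at 37C without inhibitor, and 8 and 2 at 37C with it. They numbered 9 and 10 at 4C without inhibitor, and 3 and 14 with it. Their UMIs summed to 1531 to 12470 per library at 37C and to 1328 to 8487 at 4C. No NK barcode occurred in another library. No doublet caller was run, and the sources used here do not say how the authors handled doublets.

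The 4 genes given as markers of these cells were checked in every annotated cell type. *Gzma* (granzyme A, ENSMUSG00000023132.7, chr13:113093825-113100981 in GRCm38) had a UMI in 54 of the 66 NK cells (81.8%), against 9.09% of T cells and 3.38% of tumour cells. *Gzmb* (granzyme B, ENSMUSG00000015437.4, chr14:56258838-56262260) had one in 57.6% of NK cells, 22.7% of T cells and 1.54% of tumour cells. *Ncr1* (the activating receptor NKp46, ENSMUSG00000062524.4, chr7:4337724-4345164) was found in 20 NK cells (30.3%) and in 0 of 154 T cells, which allows up to 1.95% of T cells with a UMI and is no limit on cells that express it. *Klrd1* (CD94, a partner of the NKG2 receptors, ENSMUSG00000030165.16, chr6:129591782-129598775) was found in 37.9% of NK cells and 13.0% of T cells. At least 1 of the 4 genes was seen in 64 of the 66 NK cells and in 55 T cells (35.7%). Only *Ncr1* among the 4 had no T-cell UMI, and the other 3 differed in degree. On the natural-log scale of the deposited expression table, *Gzma* averaged 3.70 ± 0.46 in NK cells and 0.25 ± 0.15 in T cells (SD, n = 7 libraries with 3 cells of each type).

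Depth and low-count barcodes were read beside these shares. Median UMIs per cell were 599 in NK cells, 503.5 in T cells and 1359 in tumour cells. With every lymphocyte thinned to 200 UMIs, *Gzma* was seen in 65.2% of NK and 3.90% of T cells, *Gzmb* in 31.8% and 11.7%, *Ncr1* in 13.6% and 0%, and *Klrd1* in 13.6% and 4.55%. Unannotated barcodes of at most 100 UMIs were read as a guide to free RNA, and whether they hold only free RNA was not tested. In them *Gzma* took 1493 CPM (a gene's UMIs per 1000000 UMIs counted) over all libraries, *Klrd1* 300 and *Ncr1* 116 CPM. By library *Gzmb* took 517 to 1624 CPM there and *Klrd1* 111 to 1182. The NK means given below were 10471 CPM for *Gzma*, 4089 for *Gzmb*, 615 for *Klrd1* and 667 for *Ncr1*, and the T-cell means of *Gzmb* and *Klrd1* were 1094 and 206 CPM. *Gzma* took 22.3 CPM of the pooled UMIs of tumour cells.

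**Figure D1:**
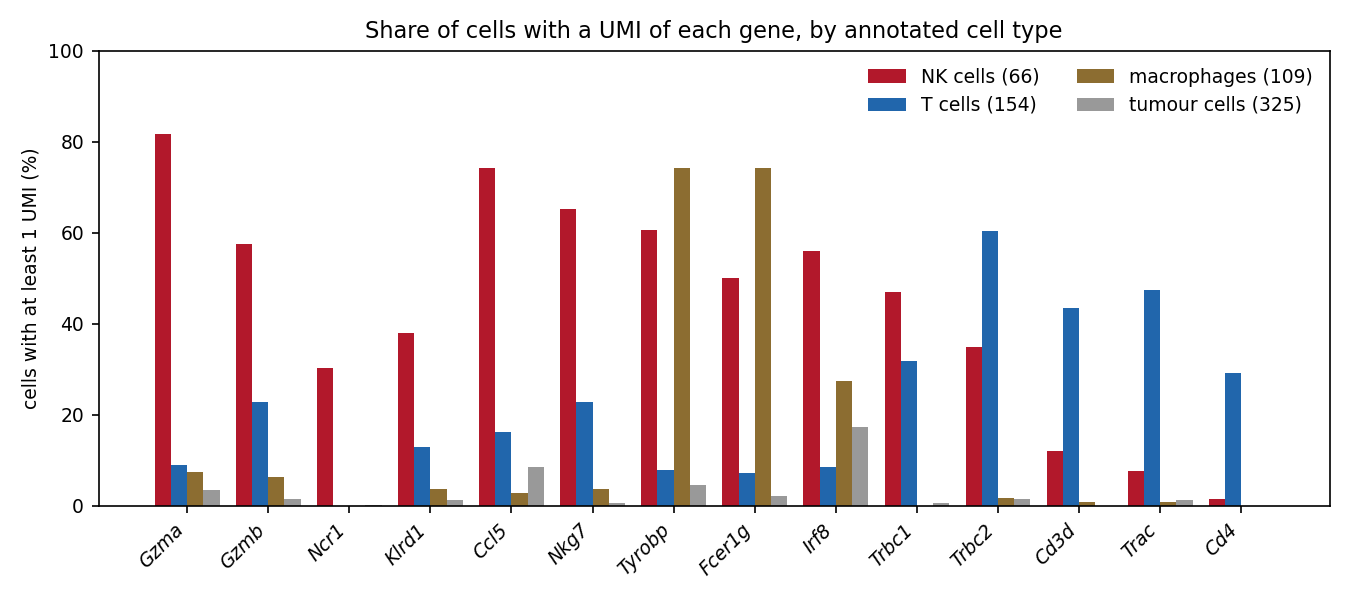
Percent of annotated cells (y axis) with at least 1 UMI of each gene (x axis), for 66 NK cells, 154 T cells, 109 macrophages and 325 tumour cells over all 8 libraries. *Ncr1* is seen in 30.3% of NK cells and in no T cell, *Tyrobp* and *Fcer1g* are shared with macrophages, and *Trbc1* is seen in NK and T cells.

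Markers of other cells were read the same way. Of the 6 tumour markers, *Krt8*, *Krt19*, *Krt7* and *Epcam* were at 0 in the NK cells. Their 33 tumour-marker UMIs were all of *Krt18* and *Spp1*. They lay in 7 cells, and 2 cells held 26 of them. Whether these UMIs came from tumour cells was not tested. All 4 neutrophil and all 5 mast cell and basophil markers were at 0, and B-cell markers gave 2 UMIs in 1 cell. Of the 8 macrophage markers *C1qa*, *C1qc*, *Adgre1* and *Cd68* were at 0, and the others gave 13 UMIs. All 12 T-cell markers were detected, with 214 UMIs in 48 of the 66 cells. All 11 NK markers were detected, and 65 of 66 cells held at least 1 of their UMIs.

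The upstream sequences of 4 genes that characterise these cells are shown because RUNX3, a transcription factor of cytotoxic lymphocytes, belongs to a family that reads the letters TGTGGT. They are the 250 bases before the RefSeq transcription start (build GRCm38.p6), 5′ to 3′ on the gene's strand, with each TGTGGT or its complement ACCACA in capitals. *Ncr1* has 2 starts in the table and the first is shown (chr7:4337465-4337714, plus strand). The others are *Gzma* (chr13:113100982-113101231, minus strand), *Gzmb* (chr14:56262335-56262584, minus strand) and *Nkg7*, a granule membrane protein gene (chr7:43436888-43437137, plus strand).
Ncr1: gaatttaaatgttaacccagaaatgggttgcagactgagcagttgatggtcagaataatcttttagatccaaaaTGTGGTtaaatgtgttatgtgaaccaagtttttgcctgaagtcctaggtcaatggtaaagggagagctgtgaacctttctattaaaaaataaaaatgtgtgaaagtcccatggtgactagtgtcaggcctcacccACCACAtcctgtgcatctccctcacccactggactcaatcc
Gzma: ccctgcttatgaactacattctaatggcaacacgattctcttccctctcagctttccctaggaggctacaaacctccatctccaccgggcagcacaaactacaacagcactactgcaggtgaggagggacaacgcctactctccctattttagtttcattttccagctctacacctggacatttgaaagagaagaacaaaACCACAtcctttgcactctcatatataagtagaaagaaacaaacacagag
Gzmb: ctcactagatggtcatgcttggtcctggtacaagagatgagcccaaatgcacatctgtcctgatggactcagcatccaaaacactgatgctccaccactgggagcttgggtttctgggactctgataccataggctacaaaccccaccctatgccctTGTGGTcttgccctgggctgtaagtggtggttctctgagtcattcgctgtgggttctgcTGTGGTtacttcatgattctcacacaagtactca
Nkg7: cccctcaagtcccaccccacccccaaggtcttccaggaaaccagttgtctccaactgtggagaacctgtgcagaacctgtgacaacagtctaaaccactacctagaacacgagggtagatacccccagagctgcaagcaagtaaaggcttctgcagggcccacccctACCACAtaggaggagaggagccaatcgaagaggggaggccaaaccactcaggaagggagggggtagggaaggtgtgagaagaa
The matches begin 176 and 41 bases before the start of *Ncr1*, 50 bases before that of *Gzma*, 93 and 34 before that of *Gzmb* and 83 before that of *Nkg7*. All 4 genes shown have a match, which does not hold for every gene high in these cells. Of others looked up, *Fcer1g*, *Irf8*, *Ugcg*, *Cxcr4* and *Eomes* had none. A match was present for *Gzmc*, *Gzmg*, *Xcl1*, *Prf1*, *Klrk1* and *Klrb1c*. Searched on both strands, these letters were in 14.0% of all 32851 windows of this length in the table, and in 11.2% of the 1726 windows of genes measured in NK or T cells. They were in 24.3% of the 103 windows of genes at least 2-fold higher in NK cells than in T cells, and in 8.51% of the 188 windows of genes at least 2-fold lower. The letters GGTGTGA, read by T-box factors such as EOMES, were in 3.33%, 3.13%, 4.85% and 2.13% of the same 4 sets, with *Nkg7* and *Xcl1* among the matches. The AP-1 letters TGACTCA were in 4.46%, 3.07%, 5.83% and 1.6%, with *Gzmb* among them. Matches of the first and second motif overlapped in 30 windows. The motifs were chosen with these sequences in view, granzyme genes share ancestry, and a match is a description of letters. *Runx3* itself was found in 25.8% of NK cells and 12.3% of T cells.

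NK cells were then set against T cells of the same libraries, the lymphocytes most like them. UMIs were summed per library and given as CPM, and means are over the 7 libraries with at least 3 cells of each type, which leaves out library B at 37C with inhibitor. Both cell types were named from these same values, so the comparison is a description and has no test. Of 1732 genes with at least 20 UMIs in the 2 types together, 111 (6.41%) were at least 2-fold higher in NK cells and 194 (11.2%) at least 2-fold lower, after 50 CPM was added to both means. The median log2 ratio of all 1732 genes was -0.08. The 20-UMI limit counts both types together, with 51771 UMIs in NK cells and 121314 in T cells. Genes high in T cells thus pass it more readily. Counts of genes lower in NK cells, here and in the lists below, are in part a result of the limit.

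Among granule genes, *Gzma* stood at 10471 ± 3273 CPM in NK cells and 289 ± 251 in T cells (SD, n = 7 libraries), a log2 ratio of 4.96, and was higher in 7 of 7 libraries. Only *Tmsb4x* and *Actb*, cytoskeletal genes, were more abundant in NK cells among genes that are neither ribosomal, mitochondrial nor predicted models. *Gzmb* stood at 4089 ± 4128 and 1094 ± 757 CPM (log2 ratio 1.86, higher in 5 of 7 libraries), so its spread in NK cells was as large as its mean. *Nkg7* had a log2 ratio of 1.17, *Ctsw* (cathepsin W) of 1.62 and *Serpinb9*, an inhibitor of granzyme B, of 1.24. Of 22 listed granule genes, 16 had 20 UMIs. Of these, 11 were at least 2-fold higher and 1 was lower, with a median log2 ratio of 1.31. The 16 include *Gzmd*, *Gzmf* and *Gzmg*, which passed the limit through 1 cell of library A at 37C with inhibitor. It held 26 of their 28, 22 of 23 and 45 of 46 NK UMIs, and the count without it was not taken. The lower one was *Srgn*, the granule proteoglycan serglycin, at 1094 ± 879 CPM against 2742 ± 1121, lower in 7 of 7 libraries. *Prf1* (perforin) was too sparse for the 20-UMI limit.

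Among receptors and their adaptors, *Ncr1* stood at 667 ± 282 CPM in NK cells. Against a floor of 3 UMIs over all T cells it was at least 25.8-fold higher. *Tyrobp*, the adaptor DAP12 that passes on signals from activating receptors, stood at 1620 ± 428 and 116 ± 85.5 CPM (log2 ratio 3.33, 7 of 7 libraries). *Fcer1g*, the adaptor of NKp46 and of Fc receptors, stood at 1051 ± 609 and 111 ± 121 CPM (log2 ratio 2.78, 6 of 7). Macrophages also carry both adaptors, each with a UMI in 74.3% of their cells. In the low-count barcodes *Fcer1g* took 1005 CPM and *Tyrobp* 969. The Fc receptor gene *Fcgr3* was at 0 in the 66 NK cells, which allows up to 4.55% of cells with a UMI at this depth. *Klrk1* (NKG2D) had a log2 ratio of 1.93, *Klrd1* of 1.38 and *Hcst* (DAP10, the adaptor of NKG2D) of 0.68. Of the 29 genes of this list, 9 had 20 UMIs. Among them 6 were at least 2-fold higher and *Klrg1*, an inhibitory receptor, was lower, with 3 UMIs in NK cells. The median log2 ratio was 1.38.

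Other NK receptors were sparse. *Klrb1c* (NK1.1) gave 18 UMIs in NK cells and 1 in T cells, *Klri2* 13 and 1, *Klra7* 11 and 0, *Klra3* 9 and 1, and *Klre1* 9 and 3. Of the same list, *Klrc1* (NKG2A) gave 10 and 16, *Cd226* 2 and 8 and *Hcst* 53 and 76, so these had more UMIs in the more numerous T cells. The Ly49 genes *Klra1* to *Klra9* resemble each other closely, so the split of reads among them is uncertain. At least 1 UMI of 12 such receptor genes was present in 49 of the 66 cells.

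Among transcription factors *Irf8*, needed for NK-cell effector function and better known from myeloid cells, was the steadiest over the 7 libraries. It stood at 1890 ± 248 CPM in NK and 311 ± 270 in T cells (log2 ratio 2.42, 7 of 7 libraries). In the library left out, *Irf8* lay at 653 CPM in NK cells, from 1 UMI. An *Irf8* UMI was also in 27.5% of macrophages and 17.2% of tumour cells. *Eomes*, a T-box factor of conventional NK cells, gave 17 UMIs in NK cells and 1 in T cells. *Tbx21* (T-bet) gave 7 and 9. *Gata3*, which directs T helper and innate lymphoid fates, gave 1 UMI in NK cells and 52 in T cells and was lower in 7 of 7 libraries. Of the 14 listed factors 7 had 20 UMIs, with 1 higher, 1 lower and a median log2 ratio of -0.40.

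Cytokine receptors differed by chain. *Il2rb*, the shared beta chain through which interleukin-2 and interleukin-15 sustain NK cells, stood at 953 ± 249 and 360 ± 197 CPM (log2 ratio 1.29, 7 of 7 libraries). *Il18r1* and *Il18rap*, the chains of the interleukin-18 receptor, had log2 ratios of 1.55 and 1.34, each higher in 6 of 7. The high-affinity chain *Il2ra* gave 3 UMIs in NK cells and 95 in T cells, and *Il7r* 3 and 58. In this list of 20 genes 14 had 20 UMIs, of which 4 were higher and 4 lower.

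Chemokines and homing receptors gave further differences. The chemokine *Ccl5* stood at 7964 ± 3049 and 988 ± 996 CPM (log2 ratio 2.95, 7 of 7 libraries). *Xcl1*, a chemokine that attracts dendritic cells, had a log2 ratio of 2.20 from 17 and 13 UMIs, and of 1.27 with UMIs pooled over cells. *Ccl3*, *Ccl4* and *Csf2* lay at least 2-fold lower, with 3, 6 and 1 UMIs in NK cells. The chemokine receptor genes *Cxcr4* and *Cxcr3* had log2 ratios of 2.25 and 1.36, each higher in 5 of 7. *Cd27*, which marks less mature NK cells, was in 22.7% of the NK cells, and *Itgam* (CD11b), which marks more mature ones, in 7.58%.

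Genes tied to type 1 innate lymphoid cells, the tissue-resident relatives of NK cells, were sparse, with 37 UMIs in the 66 cells. A comparison with T cells cannot tell NK cells from these relatives, and none was made with them. A gene at 0 allows up to 4.55% of NK cells with a UMI. *Itga1* gave 1 UMI, *Itgae* and *Tnfsf10* were at 0, and *Cxcr6* gave 9 against 64 in T cells. Of this list of 12 genes, 3 had 20 UMIs and 2 of those were at least 2-fold lower. Checkpoint receptors were also lower in NK cells, with *Pdcd1* (PD-1) at 3 and 37 UMIs and *Ctla4* at 6 and 82. All 4 of that list with 20 UMIs were at least 2-fold lower. The whole list gave only 19 UMIs in NK cells, so no member could reach the limit without T-cell UMIs. The count of 4 is thus largely a result of the limit.

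By the size rule, 12 genes were named at each end. Beside *Gzma*, *Ncr1*, *Tyrobp*, *Ccl5*, *Fcer1g*, *Irf8*, *Cxcr4*, *Xcl1*, *Gzmc* and *Gzmg*, the high end held *Car2* and *Ugcg*. *Car2* (carbonic anhydrase 2) gave 35 UMIs in 17 NK cells and 3 in T cells, and was higher in 7 of 7 libraries. *Ugcg* (glucosylceramide synthase) stood at 1176 ± 536 and 183 ± 197 CPM (log2 ratio 2.40, 7 of 7). Neither is a gene of the NK lists.

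The low end was led by *Foxp3*, the factor of regulatory T cells, with 0 UMIs in NK cells and 52 in T cells, at least 7.40-fold lower against a floor of 3 UMIs over all NK cells. *Tnfsf11* and the immunoglobulin gene *Igkc* were at 0 as well, against 38 and 46 UMIs. *Ifi27l2a*, an interferon-inducible gene, stood at 164 ± 247 and 2236 ± 1281 CPM (log2 ratio -3.42, lower in 7 of 7 libraries). *Tnfrsf4* (OX40) gave 6 and 118 UMIs, *Cd5* 2 and 65, *Ramp3* 1 and 59, *Ccr7* 1 and 70, *Il13* 1 and 67 and *Ccl1* 1 and 56. The UMIs of *Il13*, *Ccl1* and *Ccr7* lay in 4, 6 and 9 T cells and those of *Igkc* in 8, with *Igkc* at 1567 CPM in library B at 37C without inhibitor and at most 207 CPM in any other. A few T cells thus hold the UMIs behind these 4 ratios.

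Most T-cell receptor genes were lower in NK cells. Of 30 listed T-cell genes, 24 had 20 UMIs. Of these, 21 were at least 2-fold lower in NK cells, 1 was higher (*Trdc*, the delta constant gene), and the median log2 ratio was -1.49. *Trac* (alpha constant) stood at 199 ± 394 and 1343 ± 473 CPM, *Cd3e* at 117 ± 179 and 642 ± 219, and *Cd4* at 84.2 ± 223 and 812 ± 326, each lower in 7 of 7 libraries. *Trbc1* was not lower. This constant gene of the T-cell receptor beta chain stood at 1238 ± 262 in NK cells and 1080 ± 677 CPM in T cells (log2 ratio 0.19, higher in 6 of 7). Its neighbour *Trbc2* stood at 948 ± 645 and 2172 ± 577 CPM (log2 ratio -1.15). The pair (chr6:41538218-41539881 and chr6:41546730-41548352) is nearly identical in sequence, so how the counting split their reads is uncertain. *Trbc1* had a UMI in 31 of the 66 NK cells, *Trac* in 5 and *Cd3e* in 5.

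**Figure D2:**
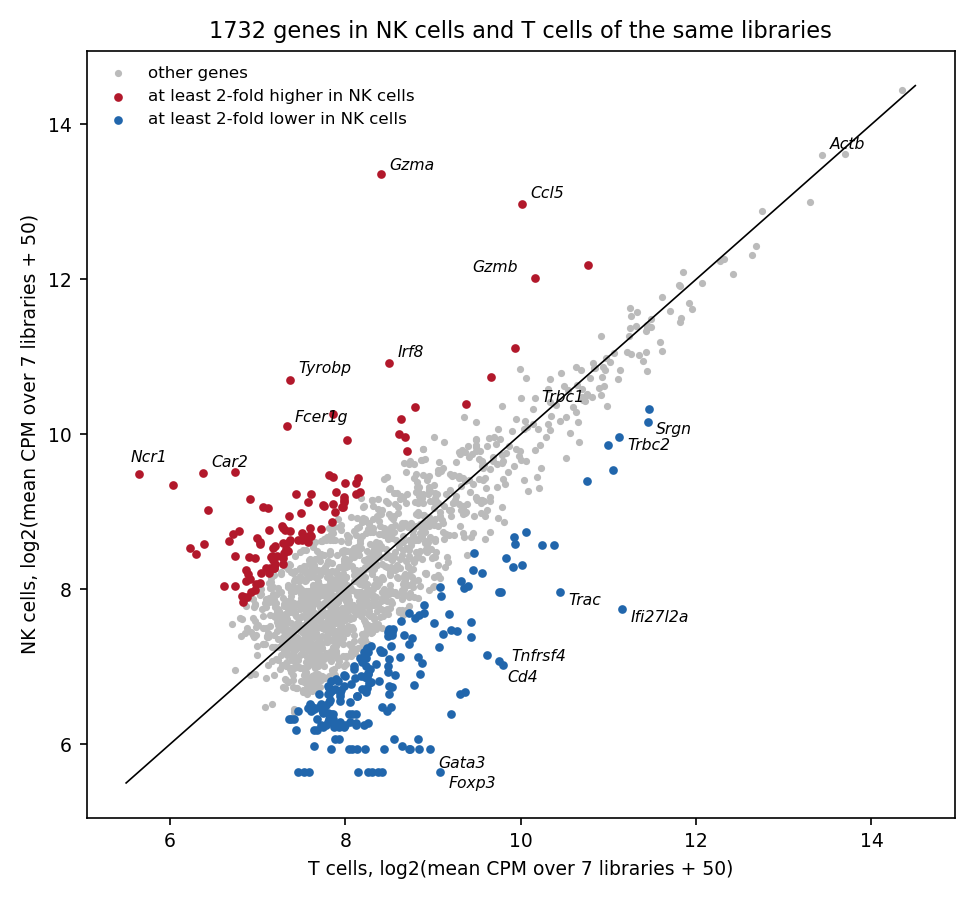
Mean level of 1732 genes in T cells (x axis) and NK cells (y axis), each as log2 of the mean CPM over 7 libraries plus 50. The line marks equal levels; *Gzma*, *Ccl5*, *Irf8* and *Ncr1* lie above it, *Foxp3*, *Gata3* and *Ifi27l2a* below it, and *Trbc1* close to it.

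The 66 cells were not alike. Of the 4 markers, 2 cells held none, 17 held 1, 28 held 2, 12 held 3 and 7 held all 4. *Gzma* and *Ccl5* occurred together in 43 cells, *Gzma* alone in 11, *Ccl5* alone in 6 and neither in 6. *Gzma* ranged from 0 to 48 UMIs per cell with a median of 6, and *Ccl5* from 0 to 52 with a median of 2.

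A UMI of *Cd3d*, *Cd3e*, *Cd3g* or *Trac* was found in 16 NK cells (24.2%), against 74.7% of T cells. In 9 of the 16 it was a single UMI. Of these 16 cells 11 also held an NK-receptor UMI, as did 38 of the other 50. *Gzma* was in 62.5% of the 16 and 88.0% of the 50, *Irf8* in 37.5% and 62.0%, *Trbc2* in 68.8% and 24.0%, and *Trbc1* in 6 of the 16 and 25 of the 50. Pooled over cells, *Trbc2* took 2124 CPM in the 16 and 674 in the 50, and *Trbc1* 1214 and 1192. These differences were not tested. Median UMIs were 671 and 576.5 per cell. At 37C 7 of 30 NK cells were of this kind and at 4C 9 of 36.

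Single cells stood out within them. A cell of library A at 37C without inhibitor had 25 CD3 and *Trac* UMIs, 12 of *Cd8a* and *Cd8b1*, 4 of *Gzmb*, and 0 of the 12 NK-receptor genes. A cell of library B at 4C with inhibitor had 5 *Cd4* UMIs, 4 of CD3 and *Trac*, and 8 of *Gzma*. Both carry the NK label in the deposited annotation. Without the 16 cells, 128 genes were at least 2-fold higher and 244 lower than in T cells, against 111 and 194 with them.

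The granzyme genes *Gzmc* to *Gzmg* behaved unlike *Gzma*. They lie in one cluster on chromosome 14, are close copies of each other, and are known from strongly stimulated killer cells. Their 162 UMIs lay in 9 cells, and 3 cells held 147 of them (90.7%). The first, in library A at 37C with inhibitor, had 105 such UMIs among 1522, only 3 of *Gzma* and 2 of *Gzmb*, and 18 tumour-marker UMIs. The second, in library A at 37C without inhibitor, had 30 among 1336, with 37 of *Gzma* and 0 tumour-marker UMIs. The third, in library B at 37C with inhibitor, had 12 among 729. A further cell, in library B at 4C without inhibitor, had 6, together with 55 *Gzmb* and 8 tumour-marker UMIs. The high ratios of *Gzmc* and *Gzmg* against T cells thus come from a few cells, in 3 and 2 of 7 libraries, and the part of tumour RNA in 2 of those cells was not tested.

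**Figure D3:**
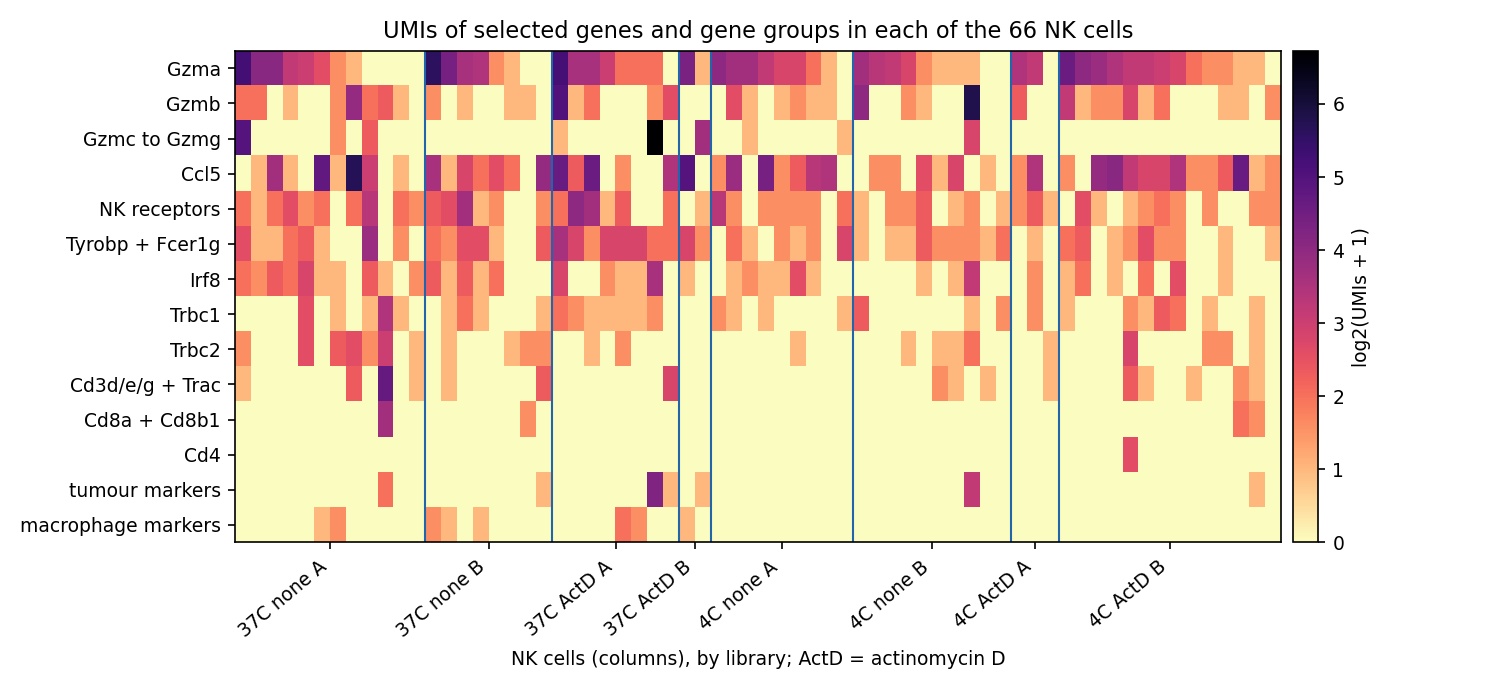
UMIs of selected genes and groups (rows) in each of the 66 NK cells (columns, ordered by library and then by *Gzma*), coloured by log2 of UMIs plus 1. The NK-receptor row sums *Ncr1*, *Klrb1c*, *Klre1*, *Klri2*, *Klrk1*, *Klrd1* and 6 *Klra* genes; *Gzma* fills most columns, while *Gzmc* to *Gzmg* fill 9 and *Cd4* fills 1.

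Whether dissociation temperature changed how many NK cells were recovered was asked against T cells, since both are lymphocytes. NK cells made up 30.0%, 25.8%, 42.1% and 16.7% of NK plus T cells in the 37C libraries (A and B without inhibitor, then A and B with it). They made up 33.3%, 26.3%, 15.8% and 41.2% in the 4C libraries in the same order. The groups overlapped fully, at 28.6% ± 10.6 and 29.2% ± 10.8 (SD, n = 4 libraries each), and an exact two-sided permutation test gave p = 0.943 (adjusted p = 1.00 over 4 tests). By inhibitor the shares were 28.9% ± 14.7 with and 28.9% ± 3.52 without (exact permutation p = 1.00, adjusted p = 1.00). Counting error alone is wide here: the exact 95% binomial interval reached from 2.09% to 48.4% for 2 of 12 cells, and from 16.6% to 46.5% for 12 of 40. Of all annotated cells rather than lymphocytes, the difference was -8.79 percentage points (37C minus 4C, exact permutation p = 0.0571).

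NK cells held more UMIs each at 37C, though the adjusted test did not pass. Median UMIs per NK cell were 833, 770.5, 1340 and 765.5 in the 37C libraries and 561, 392.5, 428 and 517 in the 4C libraries. Every 37C library lay above every 4C library, at 927 ± 277 against 475 ± 77.8 UMIs (SD, n = 4 each). The exact two-sided permutation p was 0.0286, the smallest that 4 against 4 libraries can give, and 0.114 after adjustment over the 4 tests. With no other small p among the 4, the adjusted value could not have been lower, so the adjusted test decides nothing. The 2 libraries of a suspension are not independent. With 2 against 2 suspensions the smallest exact permutation p would be 0.333. T cells stood at 360 ± 47.0 at 4C and 850 ± 123 at 37C. Median genes per NK cell were 600.4 ± 132 at 37C and 359 ± 55.7 at 4C. At a fixed 200 UMIs per cell they were 170.5 ± 2.65 and 173 ± 3.47 (exact permutation p = 0.400, adjusted p = 0.800).

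Expression was compared between temperatures on the UMI sums of the NK cells of each library. The count model (edgeR's quasi-likelihood test, 4 groups) tested 97 genes and called 0 of them (0%) at an adjusted p under 0.05. At an unadjusted p under 0.05 there were 9, and 3 by DESeq2's Wald test, which also called 0. The median log2 difference of the 97 genes, 37C minus 4C, was -0.02. With no called gene to name, what follows are members of the gene lists, and *Ptprcap*, which was chosen after its values were seen.

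*Gzma* was among the genes that did not pass. It stood at 7378, 14598, 6785 and 13063 CPM in the 37C libraries and at 12088, 7228, 13554 and 11665 CPM in the 4C libraries, with full overlap. The log2 difference was -0.20 with a standard error of 0.38 (edgeR adjusted p = 0.959). *Ncr1* lay at 321, 793, 1009 and 653 CPM at 37C and at 959, 361, 753 and 471 at 4C, also overlapping, from 33 UMIs in all. *Klrd1* lay at 481, 635, 733 and 0 CPM and at 1151, 361, 0 and 943.

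*Gzmb* was uneven. It stood at 2486, 793, 3851 and 0 CPM at 37C and at 2111, 13191, 3012 and 3181 CPM at 4C (log2 difference -1.15, SE 0.61, edgeR adjusted p = 0.648). The value of 13191 CPM rests on 73 UMIs, of which 55 came from the single cell named above that also had 8 tumour-marker UMIs. Without that cell the library stood at 4956 CPM and the 4C mean at 3315 ± 1191 (SD, n = 4) in place of 5374 ± 5233, against 1783 ± 1725 at 37C. The fitted log2 difference was -0.18 without that library and -0.56 without the 2 cells with 5 or more tumour-marker UMIs. Without library A at 37C with inhibitor, *Gzmb* was called lower at 37C (log2 difference -4.63, edgeR adjusted p = 0.00254). Library B of that condition, with 2 cells and 0 *Gzmb* UMIs, then stood for its condition alone.

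The gene with the smallest p was *Coro1a*, coronin-1A, an actin-binding protein of lymphocytes. It lay at 1042, 476, 275 and 1306 CPM at 37C and at 2111, 2168, 1506 and 2003 CPM at 4C. Every 37C library was below every 4C library (log2 difference -1.77, SE 0.50, edgeR adjusted p = 0.269). *Ptprcap*, which binds the phosphatase CD45, lay at 481, 793, 733 and 0 and at 1535, 1807, 3765 and 2239 CPM, again without overlap (log2 difference -1.81, SE 0.52, edgeR adjusted p = 0.269). Neither passed the test. *Nkg7* lay at 2566, 2856, 3576 and 3266 CPM at 37C and at 1535, 2349, 0 and 2239 CPM at 4C, with every 37C library above (log2 difference 0.65, SE 0.38, edgeR adjusted p = 0.699). In T cells it lay at 751 and 1091 CPM. The chemokine receptor *Ccr2* had a log2 difference of -2.14 (SE 0.92, edgeR adjusted p = 0.451) and *Gzmc* of 4.07 (SE 1.58, edgeR adjusted p = 0.352), the latter from the few cells described above. With the aliquots of each suspension summed, so that the spread is that between the 4 suspensions, 7 of 243 genes were called. *Gzmc*, *Gzmg* and *Nr4a3* were higher at 37C, and *Ccr2*, *Coro1a*, *Gzmb* and *Ptprcap* lower. That fit has no replicate within a condition, and its spread is only what additive terms for temperature and inhibitor leave over. For *Gzmg*, 45 of 46 NK UMIs lay in 1 cell.

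Immediate-early genes, which cells switch on within minutes of a stimulus, were too sparse for the count model, and 0 of the 32 listed genes entered it. Summed, they took 0.930%, 1.11%, 0.660% and 0.914% of NK UMIs in the 37C libraries and 0.288%, 0.307%, 0.377% and 0.448% in the 4C libraries. The groups did not overlap, at 0.904% ± 0.185 and 0.355% ± 0.0727 (SD, n = 4 each), from 272 and 75 UMIs. Of the 13 members with at least 10 NK UMIs, 12 had a higher mean at 37C, with a median log2 ratio of 1.67 (50 CPM added). This limit counts both temperatures together, with 31210 NK UMIs at 37C and 20561 at 4C. Genes high at 37C thus pass it more readily, and the 12 of 13 is in part a result of the limit. Of the 29 members with any NK UMI, 22 had a higher mean at 37C. The share over all genes with any NK UMI was not taken, and the greater depth at 37C bears on this count too. Over all 1021 genes with 10 NK UMIs, 52.3% had a higher mean at 37C and the median was 0.06. *Btg2* and *Nr4a1* had every 37C library above every 4C library, as had 31 of the 1021 genes (3.04%), while 16 (1.57%) had every 37C library below.

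Single members were sparse. The orphan nuclear receptor gene *Nr4a1* gave 11 UMIs at 37C and 0 at 4C. *Nr4a3*, of the same family, lay at 1684, 952, 642 and 0 CPM at 37C and at 0, 0, 0 and 118 CPM at 4C. With the filter lowered to a minimum count of 5 it entered the count model, at a log2 difference of 4.16 that depends on the added prior count (SE 1.22, edgeR adjusted p = 0.0884). *Btg2*, an antiproliferative gene, lay at 1042, 2856, 1100 and 653 CPM at 37C and at 384, 181, 0 and 589 CPM at 4C (edgeR adjusted p = 0.287 in the same fit). *Fos* and *Egr1*, the best-known members, gave 1 UMI each in all 66 cells.

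Inflammatory NF-kB genes lay at 0.357% ± 0.149 of NK UMIs at 37C and 0.135% ± 0.0636 at 4C, with overlap. Among them *Nfkbia*, the inhibitor that NF-kB itself induces, lay at 882, 1111, 1100 and 0 CPM at 37C and at 384, 361, 0 and 118 CPM at 4C. Heat shock genes took 0.263% ± 0.130 and 0.194% ± 0.0444. The cold-inducible pair *Cirbp* and *Rbm3* gave 10 UMIs in all.

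Macrophage genes also differed with temperature in these cells, and their part in the sums above was not tested beyond the values here. The 16 listed macrophage genes gave 34 UMIs in NK cells at 37C and 1 at 4C, or 0.0802% to 0.196% of UMIs in the 37C libraries and 0% to 0.0192% in the 4C libraries. Such a UMI was present in 21 NK cells, 20 of them at 37C. Without these cells, the immediate-early sum was 0.566% ± 0.511 over the 3 libraries left at 37C and 0.357% ± 0.0704 over the 4 at 4C (SD), with overlap. Pooled over libraries it was 0.907% of the UMIs of the 10 NK cells left at 37C and 0.370% of those of the 35 left at 4C. Of the 104 immediate-early UMIs then left at 37C, 89 lay in library A without inhibitor, and library B with inhibitor had no cell left. Without the 2 cells rich in tumour-marker UMIs it was 0.909% ± 0.176 and 0.347% ± 0.0810. Without cells with a CD3 or *Trac* UMI it was 0.889% ± 0.124 and 0.381% ± 0.119. With each cell thinned to 200 UMIs it was 0.792% ± 0.156 and 0.299% ± 0.140, and in the last 3 of these settings the groups did not overlap. *Tyrobp*, which macrophages share, lay at 2097 ± 371 CPM at 37C and 1391 ± 428 at 4C (edgeR adjusted p = 0.911), with every 37C library above every 4C library, as for the macrophage genes. The part of macrophage RNA in this was not tested.

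The difference in temperature response between NK and T cells was tested with a term for cell type by temperature, with each library as a block. It tested 158 genes and called 0 (0%), with 17 at an unadjusted p under 0.05 (edgeR). The 3 smallest p-values belonged to *Ccr2*, *Stat3* and *Ly6c2*, with log2 differences of -2.62, -2.42 and 2.58 (edgeR adjusted p = 0.321 for each). *Stat3* was chosen after its values were seen. *Ccr2*, for example, stood at 411 ± 192 CPM at 37C and 1193 ± 1088 at 4C in NK cells, and at 895 and 484 CPM in T cells.

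No gene was called for actinomycin D. At 37C 0 of 97 genes (0%) were called, with 3 at an unadjusted p under 0.05 by edgeR and 1 by DESeq2. Among them were *Vps37b* (log2 difference -2.33, inhibitor minus none) and *Rpl34* (0.96), with edgeR adjusted p-values of 0.798 and 0.933. At 4C 0 of 97 (0%) were called, with 1 at an unadjusted p under 0.05 by edgeR, *Gimap4* (1.46, edgeR adjusted p = 0.990), and 0 by DESeq2. *Vps37b* and *Rpl34* are in no list and were chosen after their values were seen. At 37C only 2 NK cells stood for library B with inhibitor.

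Immediate-early sums with inhibitor are given for both lymphocytes. At 37C NK cells stood at 0.930% and 1.11% without and at 0.660% and 0.914% with actinomycin D. T cells of the same libraries stood at 1.04% and 0.994% without and at 0.252% and 0.295% with it. The NK values with inhibitor rest on 72 UMIs in 8 cells and 14 UMIs in 2 cells. At 4C T cells lay between 0.318% and 0.481% and NK cells between 0.288% and 0.448%. Whether the cell types differ in this was not tested.

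**Figure D4:**
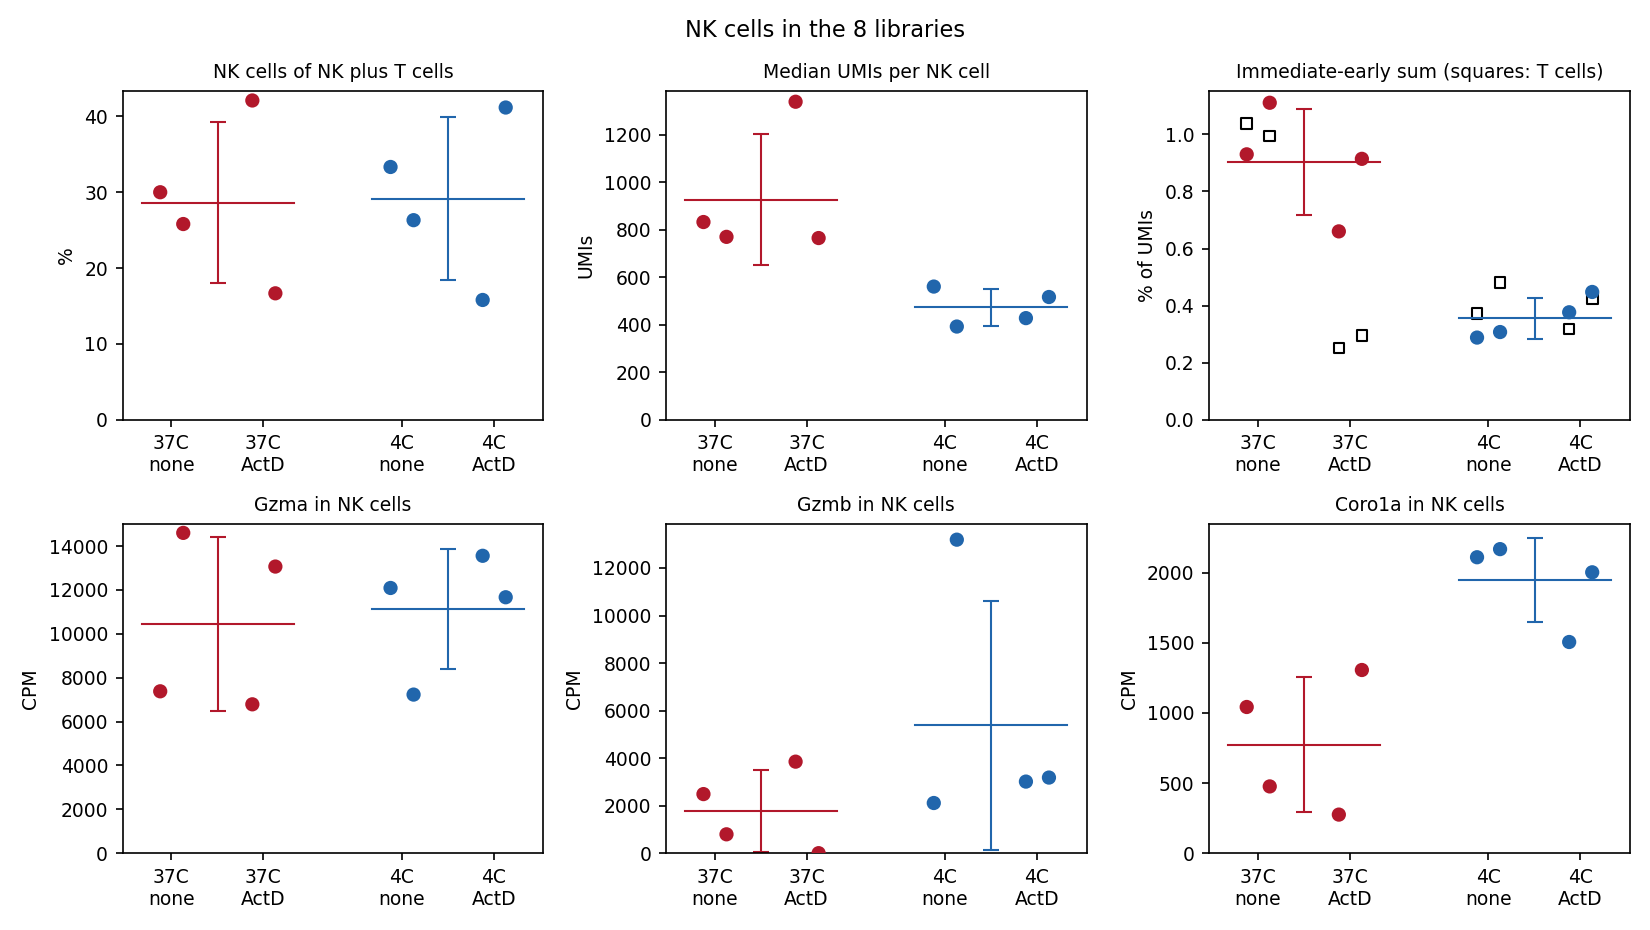
Values of NK cells in each of the 8 libraries (points; red 37C, blue 4C; the x axis gives temperature and actinomycin D, ActD), with the mean (line) and SD (bar) of the 4 libraries at each temperature; open squares give T cells for the immediate-early sum. NK share, *Gzma* and *Gzmb* overlap between temperatures, while UMIs per cell, the immediate-early sum (0.904% and 0.355%) and *Coro1a* do not.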

How the data were processed

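The authors deposited raw counts, UMIs per gene and barcode, for each library. They also deposited an expression table of 654 cells and 6933 genes on a natural log scale, ln(1 + counts per 10000), and a cell annotation. On the 6734 genes matched by symbol, 99.99% of the deposited natural-log values above 0 in NK cells equalled ln(1 + counts per 10000) computed from the raw counts, within a tolerance of 0.001. The counts were therefore used throughout. The genome build GRCm38 and the tools STAR 2.7.1a, Seurat, SAMtools, featureCounts 1.6.0 and UMI-tools come from the submitters' processing notes. The sources used here do not give their settings, the filters on cells or how cells were named. GENCODE M21 gave a symbol for 17520 of 17578 gene identifiers, some matched without the version.

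UMIs of NK or T cells were summed per library. Models were fitted with edgeR 4.0.16 (TMM, filterByExpr with a minimum count of 10, glmQLFit and glmQLFTest, two-sided, Benjamini-Hochberg adjustment over all genes tested) under R 4.3.3, and were tested on simulated data. DESeq2 1.42.0 was an alternative. Per-library measures were compared by exact two-sided permutation (SciPy 1.17.1) over 70 arrangements. Of NK against T cells, the 12 highest and 12 lowest ratios are named, beside members of 25 gene lists. The NK cells, lists and rules were chosen with earlier results of these data known. Intervals and floors (3 counts) cover counting error only. Promoters were read from RefSeq, GRCm38.p6; *Klrd1*, *Tyrobp* and *Ccl5* had no entry. The letters A and B mark aliquots and do not pair conditions. Some results are not reported here.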

Additional observations from a re-analysis of the deposited data

Results flagged for a closer look

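Each of these 4 values stood apart from the other 3 libraries of their temperature by Dixon's test at 95%, which flags about 1 in 20 groups by chance. Median UMIs per NK cell were 1340 in library A at 37C with inhibitor. *Gzmb* stood at 13191 CPM in library B at 4C without inhibitor, where 55 of 73 UMIs came from 1 cell. *Ccl5* stood at 19595 CPM and *Irf8* at 653 CPM in library B at 37C with inhibitor, where 2 NK cells gave 30 *Ccl5* UMIs, all in 1 cell, and 1 *Irf8* UMI.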

How the results depend on the processing

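Counts of called genes stayed at 0 for temperature in NK cells under DESeq2's size factors, DESeq2's Wald test, no filter, a minimum count of 5, the additive model, thinning, each removal of cells, and the limit to libraries with 5 or more NK cells. Thinning left only 14 genes to test, and removal of cells with any CD3 or receptor-constant UMI left 29, against 97 in the main fit. A count of 0 in those 2 settings therefore says little. Aliquots summed gave 7, in a fit with no replicate within a condition. Leaving out 1 library gave 0 to 4, the 4 (*Aldoa*, named after its value was seen, *Gzmb*, *Gzmc* and *Ptprcap*) without library A at 37C with inhibitor, where the remaining library of 2 cells was assumed to vary like the others. For actinomycin D at 37C the range without 1 library was 0 to 1, the 1 (*Gzmg*) without library B with inhibitor, and the limit to libraries with 5 or more NK cells also gave 1; other settings gave 0. For actinomycin D at 4C, and for NK against T cells by temperature, every setting run gave 0. The fits with a replicate block, which treat A and B as paired across conditions, called 0 genes in each of the 3 NK contrasts; same-letter deviations correlated at -0.14 to 0.13 over 97 genes, so the letters give no pairing. The difference in NK share of lymphocytes, 37C minus 4C, was -0.51 percentage points and changed sign to 0.75 without cells with a CD3 or *Trac* UMI; without 1 library it ranged from -5.00 to 3.50, with both signs (0.88 and 0.44 without library A at 4C and library B at 37C, both without inhibitor; 3.48 and 3.50 without library B at 37C and at 4C, both with inhibitor). The difference in median UMIs per NK cell ranged from 315 to 507 without 1 library, where the smallest p that the design allows is 0.0571. Against T cells, 222 genes were at least 2-fold higher and 532 lower without NK cells with any CD3 or receptor-constant UMI, which leaves 19 cells and none in library A at 37C with inhibitor. There the log2 ratio of *Gzmg* changed sign (-0.45), that of *Gzmc* moved from 2.77 to 0.15 and that of *Xcl1* from 2.20 to 0.44. With 10 CPM added in place of 50, *Ncr1* had the ratio 6.08. The log2 difference of *Gzma* by temperature changed sign without a filter (0.030), and without 1 library it ranged from -0.56 to 0.083, the latter without library A at 4C without inhibitor. Of 171 recomputed values of single genes, 153 kept their direction and side of the threshold, 10 moved beyond 1 SD, 3 changed sign and 5 passed the threshold. Removal of cells with a CD3 or *Trac* UMI or with 5 or more tumour UMIs, and the limit on NK cells per library, were chosen after seeing the data.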
